A study of Mus musculus with 4 samples.

Results

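A set of 38 genes that encode lysosomal hydrolases, their helpers and proteins of the lysosomal membrane was followed in infarcted mouse hearts. They were listed by symbol and matched to array probes through RefSeq accessions. Of the 38 genes, 37 had at least 1 probe (44 of 39429 probes on the array), and Cd68, a heavily glycosylated membrane protein of macrophage lysosomes, had no probe named here. All 37 were well above background on all 4 arrays and entered the test among 22926 features. The hearts came from male mice 5 days after the left anterior descending coronary artery was tied off, which causes a myocardial infarction. WT mice (2 arrays, replicates 1 and 3) were set against mice labelled VE-Cad-Cre-S1pr1 fl/fl (KO, 2 arrays, replicates 3 and 4), in which Cre under the VE-cadherin promoter is meant to delete the floxed sphingosine 1-phosphate receptor gene S1pr1 in endothelial cells. Every heart was infarcted, so no value below is a response to infarction. Age, strain and whether WT mice carried Cre or floxed alleles are not given in the sources used here, nor whether each array is a separate heart. The p-values thus reflect only how far these 4 samples spread, and part of that spread may be technical. Each value is a level, the log2 processed signal of a 1-colour Agilent array relative to the 75th percentile of its own array, or a difference between levels, KO minus WT. With 2 arrays a genotype, that number sets the precision.

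Lysosomes are acidic compartments in which proteins, glycans and lipids are broken down. A proton pump, the V-ATPase, acidifies them, hydrolases such as the cathepsins work at that low pH, and membrane proteins such as LAMP1 line the inside. Phagocytes are rich in lysosomes, and in an infarct macrophages use them to digest dead cells, while cardiomyocytes use them mainly for autophagy. The transcription factor TFEB switches on many lysosomal genes through promoter elements built on an E-box.

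S1pr1 itself, the gene targeted, had levels of 0.43 and 0.95 (WT) against -2.69 and -2.30 (KO), a difference of -3.19 (SE 0.38, adjusted p = 0.740 in limma). Cardiomyocyte markers, which define the tissue, were above background on every array for 14 of 14 genes. The file headers give every array the code 1, with a position: 4 (replicate 1) and 3 for WT, 2 (replicate 3) and 1 for KO. Whether that code names a slide, and so whether the arrays shared a slide, is not known. Position and genotype cannot be told apart. WT replicate 1 had the fewest probes well above background (54.3%, against 69.4% to 73.4% on the other arrays) and the lowest cardiomyocyte marker mean, 2.05 against 5.87 to 6.77. At an adjusted p under 0.05, limma called 0 of 22926 features, and 633 (2.76%) had an unadjusted p under 0.05.

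Most of the listed lysosomal genes were lower in KO hearts, but none passed the test. The list was chosen with earlier results of these data known, and of 77 other lysosomal genes 43 were lower in KO. The mean was lower in KO for 31 of 37 genes, where 45.2% of all features were lower. The median difference was -0.44 (lowest -1.74 for Ctss, highest 1.36 for Tfeb), beside 0.07 over all features. At least 2-fold lower were 8 genes (7.51% of all features): Ctss, Atp6v0d2, Laptm5, Ctsz, Lgmn, Ctsc, Gusb and Ctsk. Tfeb was the gene at least 2-fold higher (10.2% of all features). Adjusted p-values in limma ran from 0.740 to 0.993, and 1 gene of 37, Lgmn, had an unadjusted p under 0.05 (1.35% of all features were below that and lower in KO, 2.76% in either direction), a share near the background. Levels did not overlap between genotypes for 23 genes lower in KO (16.1% of all features) and for 4 higher (18.3%).

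The order of the arrays was much the same for most genes, and it was also the order of their header positions, from 4 (WT replicate 1) to 1 (KO replicate 4). WT replicate 1 was highest and KO replicate 4 lowest for 27 of 37 genes (23.5% of all features), and the reverse held for 4 genes, Gaa, Gla, Galns and Tfeb (34.6%). WT replicate 3 and KO replicate 3 lay between them and close together. The median difference was -0.11 between these arrays numbered 3, with KO lower for 25 of 37 genes (54.5% of all features). The sample titles do not say that these arrays are a matched pair. They are the WT and KO arrays nearest in that order, and the median of WT replicate 1 minus KO replicate 4 was 0.93. Within genotypes, the median of WT replicate 1 minus WT replicate 3 was 0.51, and that of KO replicate 4 minus KO replicate 3 was -0.35. The median between genotypes therefore shifted with the array left out: it was -0.29 without WT replicate 1, -0.67 without WT replicate 3, -0.60 without KO replicate 3 and -0.34 without KO replicate 4. For 10 genes the range over all 4 arrays was under 0.5 (21.7% of all features). These were Ctsd, Tpp1, Manba, Psap, Npc1, Lamp1, Lamp2, Scarb2, Atp6v1b2 and Mcoln1.

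**Figure D1:**
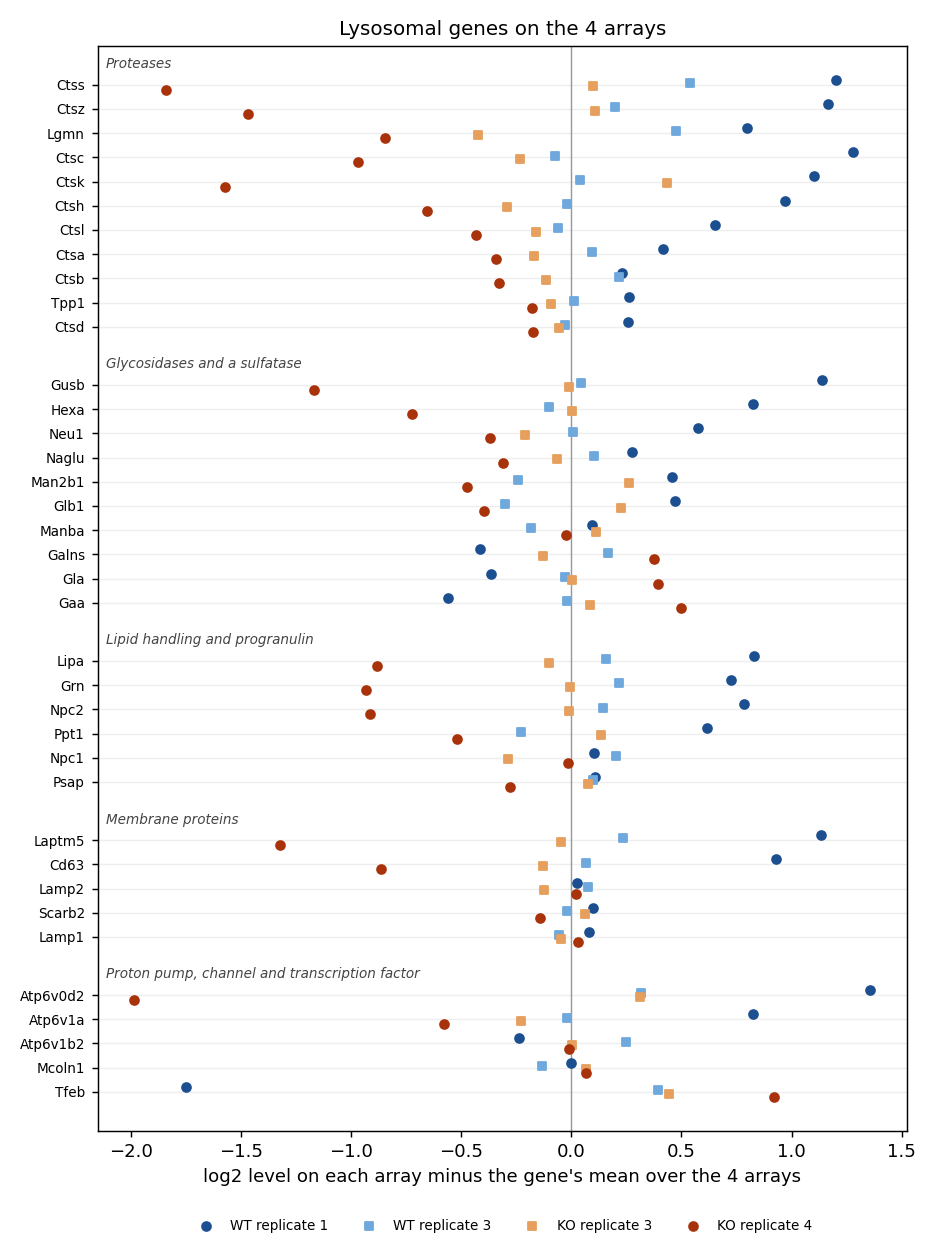
Log2 level of 37 lysosomal genes on each of the 4 arrays, centred on the gene's mean over the arrays (horizontal axis), with genes grouped by role. Dark blue points (WT replicate 1) lie to the right and dark red points (KO replicate 4) to the left for most genes, the squares (replicates 3 of each genotype) lie between them for most, and Gaa, Gla, Galns and Tfeb run the other way.

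**Figure D2:**
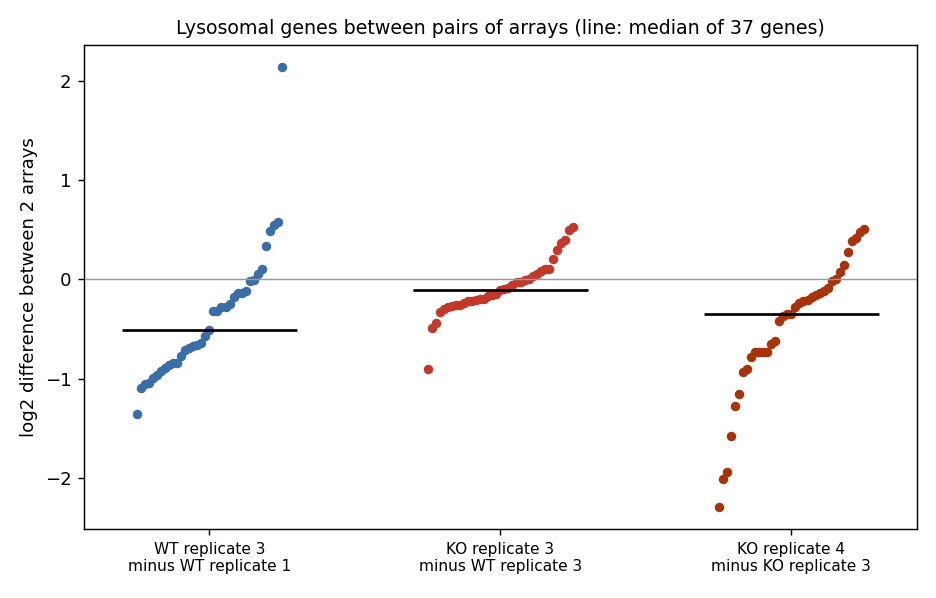
Log2 difference between 2 arrays for each of 37 lysosomal genes (points, sorted within each step), with the median as a line. The medians are -0.51 from WT replicate 1 to WT replicate 3, -0.11 from WT replicate 3 to KO replicate 3 and -0.35 from KO replicate 3 to KO replicate 4. The step between genotypes joins the WT and KO arrays that lay nearest in this order. Its size therefore cannot be set against the steps within genotypes. The median of WT replicate 1 minus KO replicate 4, also a pair between genotypes, was 0.93.

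The mean level of macrophage markers was highest on WT replicate 1 and lowest on KO replicate 4, and so was each of 13 of the 16 markers. All 16 of 16 markers were above background on every array, and 16 of 16 had a lower mean in KO (15 of 16 with normexp background correction). Their mean level was 3.29 and 2.42 (WT) against 2.22 and 1.06 (KO), and their summed linear level (times the array's 75th percentile) was 281.5 and 165.0 against 132.1 and 74.7. Their median difference was -0.69, and 6 of 16 were lower without overlap between genotypes (16.1% of all features, 34.4% in either direction). Between the arrays numbered 3, 7 of 16 were lower in KO, with a median of 0.09. Cardiomyocyte markers ran in the opposite direction at the ends, with a higher mean in KO for 14 of 14. Their summed levels were 174 and 1504 (WT) against 1310 and 2203 (KO). Of these 14 markers, 0 were free of overlap between genotypes (34.4% of all features). All 14 of 14 were lower in KO between the arrays numbered 3, with a median of -0.19. Fibroblast markers were lower for 6 of 10 (7 with median scaling, quantile normalization or the deposited values), with summed levels of 557.2 and 583 (WT) against 593.1 and 264.3 (KO). Endothelial markers were higher for 10 of 10 (9 of 10 with median scaling or normexp), and their summed levels were 112.7 and 176.8 (WT) against 193.9 and 189.6 (KO). Neutrophil markers (6 of 8 above background on every array, Cxcr2 and Ngp not) had summed levels of 65.8 and 50.3 (WT) against 54.8 and 66.0 (KO). Lymphocyte markers were dim (7 of 8 above background on every array), with summed levels of 3.31 and 1.48 in WT and 3.90 and 1.52 in KO. Ly6g, Cd79a and Calcr, listed as markers of neutrophils, lymphocytes and osteoclast-type cells, did not enter the test. The part of these cell types in the lysosomal values was not tested. The sample titles name the heart but not the part of it that was taken. In RNA of heart tissue, fewer cells of a type and less RNA per cell cannot be told apart.

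**Figure D3:**
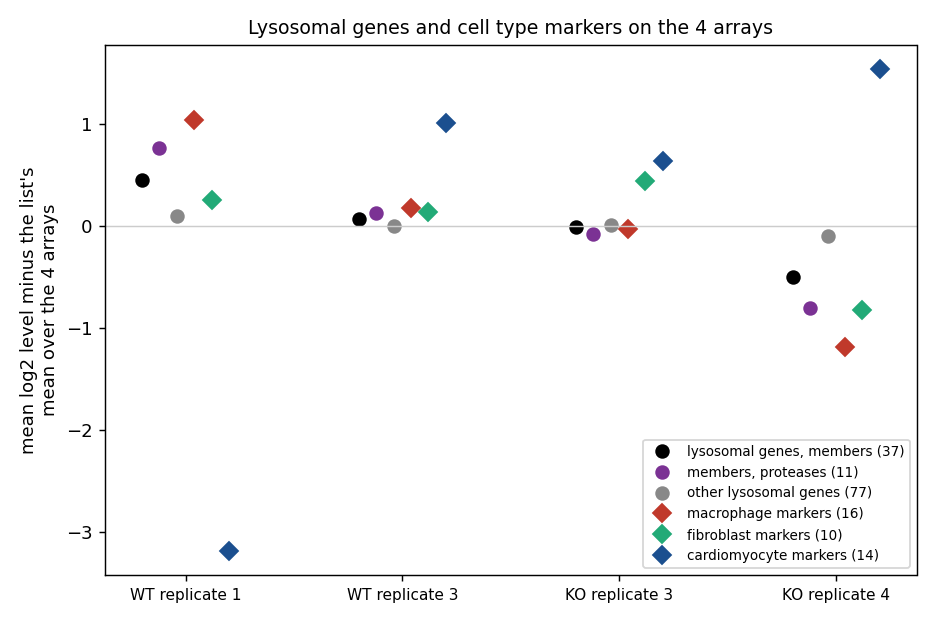
Mean log2 level of each gene list on each array minus the list's own mean over the 4 arrays, for the lysosomal genes (circles) and for markers of cell types (diamonds); numbers in brackets are genes tested. Lysosomal members, their proteases and macrophage markers are highest on WT replicate 1 and lowest on KO replicate 4, where cardiomyocyte markers are lowest and highest, and the 77 other lysosomal genes stay near 0.

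The proteases were lower in KO throughout: the mean was lower for 11 of 11, with a median difference of -0.95, and 10 of 11 were lower without overlap between genotypes (16.1% of all features). None passed the test (adjusted p = 0.740 to 0.804 in limma). Legumain (Lgmn), an asparaginyl endopeptidase that also activates cathepsins, had the smallest unadjusted p of the 37 genes. Its WT levels were 5.80 and 5.48 and its KO levels 4.57 and 4.15. Both WT arrays lay above both KO arrays, and the gap between the nearest arrays, replicates 3 of each genotype, was -0.90, larger than the spread within WT (0.32) or within KO (0.42). The difference was -1.27 (SE 0.35, 95% interval -2.22 to -0.33), or 2.42-fold lower, which ranked 141 of 22926 by unadjusted p (0.0192 in limma, adjusted p = 0.740). Over the 6 ways to split 4 arrays, the exact permutation p (two-sided) was 0.333, which no gene can go below in this design. With each array left out in turn the difference stayed between -1.49 and -1.06.

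Cathepsin S (Ctss), a cysteine protease that trims the invariant chain for antigen presentation, had the largest difference of the 37 genes. Its level was 6.18 and 5.52 in the WT hearts, and 5.07 and 3.13 in the KO hearts. The genotypes did not overlap, but KO replicate 4 stood far below the other arrays. The difference was -1.74 (SE 0.76, adjusted p = 0.740 in limma), -0.78 without KO replicate 4, -2.71 without KO replicate 3 and -0.44 between the arrays numbered 3. Cathepsin Z (Ctsz), a carboxypeptidase, showed the same shape, with 3.11 and 2.15 (WT) against 2.06 and 0.48 (KO). Its difference was -1.36 (SE 0.70), -0.57 without KO replicate 4, -2.15 without KO replicate 3 and -0.09 between the arrays numbered 3.

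Cathepsin C (Ctsc), which activates serine proteases of granulocytes, was shaped by the other end of that order. Its WT levels were 4.46 and 3.11 and its KO levels 2.95 and 2.22, so WT replicate 1 stood above the rest. The difference was -1.20 (SE 0.60), or -0.52 without WT replicate 1 and -1.88 without WT replicate 3. Cathepsin H (Ctsh), an aminopeptidase, had a like order, 4.96 and 3.97 (WT) against 3.70 and 3.33 (KO), with a difference of -0.95 (SE 0.47), or -0.46 without WT replicate 1 and -1.45 without WT replicate 3.

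Cathepsin K (Ctsk), the collagen-degrading cathepsin of osteoclasts that activated fibroblasts also make, was the protease whose genotypes overlapped. Its level was 3.01 and 1.95 in the WT hearts, and 2.35 and 0.34 in the KO hearts. KO replicate 3 lay above WT replicate 3 by 0.39, while KO replicate 4 was lowest. The difference of -1.14 (SE 0.83) became -0.14 without KO replicate 4, -0.61 without WT replicate 1 and -2.15 without KO replicate 3. Fibroblast markers were also lowest on KO replicate 4, with a mean of 3.08 against 4.05 to 4.35 on the other arrays, and their part was not tested. The markers of multinucleated osteoclast-type cells were dim: the means of 5 genes were -2.44 and -3.88 (WT) against -3.52 and -4.06 (KO), and Dcstamp was not above background on KO replicate 4.

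The differences of the remaining proteases were smaller. Cathepsin B (Ctsb), a cysteine protease, had levels of 7.0 and 6.99 (WT) against 6.66 and 6.44 (KO). Its WT arrays were almost equal, and both lay above KO by more than that spread. The difference was -0.44 (SE 0.31, 95% interval -1.28 to 0.39), or -0.80 with quantile normalization or the deposited values. Cathepsin L (Ctsl), another cysteine protease, differed by -0.59 (SE 0.40; -0.24 without WT replicate 1 and -0.95 without WT replicate 3), with 5.99 and 5.27 (WT) against 5.17 and 4.90 (KO). Cathepsin D (Ctsd), the aspartic protease, ranged from 5.47 to 5.90 and differed by -0.23 (SE 0.32, 95% interval -1.09 to 0.63). The carboxypeptidase cathepsin A (Ctsa), which also protects other lysosomal enzymes, differed by -0.51 (SE 0.33), and the tripeptidyl peptidase Tpp1 by -0.27 (SE 0.32).

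The glycosidases and the sulfatase split in direction, with 6 of 10 lower and 4 of 10 higher in KO (7 and 3 with median scaling, where Manba changed sign) and a median difference of -0.19. Beta-glucuronidase (Gusb), which removes glucuronic acid from glycosaminoglycans, had the largest difference among them. Its WT levels were 2.45 and 1.36 and its KO levels 1.30 and 0.14. The arrays numbered 3 were within 0.06 of each other, with WT replicate 1 above them and KO replicate 4 below. The Gusb probe was printed in 10 spots on each array, and the 7 to 10 spots used per array had an SD of 0.04 on each of them. These SDs cover the printing and reading of spots within an array, not the spread between samples. The difference between genotypes was -1.18 (SE 0.62, adjusted p = 0.740 in limma), or -0.64 without WT replicate 1 and -0.60 without KO replicate 4.

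The beta-hexosaminidase alpha subunit (Hexa), which degrades GM2 ganglioside, had levels of 4.05 and 3.12 (WT) against 3.23 and 2.5 (KO). The genotypes overlapped, and the difference was -0.72 (SE 0.50), with a range of -1.18 to -0.26 with an array left out. The sialidase Neu1 did not overlap, with 2.71 and 2.14 (WT) against 1.93 and 1.77 (KO), and differed by -0.58 (SE 0.36), or -0.30 without WT replicate 1. Naglu, which degrades heparan sulfate, had a narrow range of -1.44 to -0.86 and differed by -0.38 (SE 0.32). The alpha-mannosidase Man2b1 and the beta-galactosidase Glb1 differed by -0.21 (SE 0.46) and -0.17 (SE 0.45). Between the arrays numbered 3 both were higher in KO, by 0.50 and 0.53, and both changed sign without WT replicate 1 (0.13 and 0.22) or KO replicate 4 (0.15 and 0.14). The beta-mannosidase Manba had a range of 0.30 over all arrays and a difference of 0.09 (SE 0.32).

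Acid alpha-glucosidase (Gaa), which breaks down glycogen in lysosomes and whose loss causes a disease of heart and skeletal muscle, was higher in KO. Its level was 3.53 and 4.07 in the WT hearts, and 4.18 and 4.59 in the KO hearts. The genotypes did not overlap, and WT replicate 1 was lowest, as it was for the cardiomyocyte markers. The difference was 0.58 (SE 0.38, 95% interval -0.44 to 1.60, adjusted p = 0.740 in limma), or 0.31 without WT replicate 1 and 0.38 without KO replicate 4. Alpha-galactosidase A (Gla), whose loss causes Fabry disease, had levels of 6.13 and 6.47 (WT) against 6.50 and 6.89 (KO), a difference of 0.40 (SE 0.35). It was 0.15 with quantile normalization or the deposited values, 0.24 with normexp, and 0.20 to 0.23 with KO replicate 4 or WT replicate 1 left out. The arrays numbered 3 were 0.03 apart. The sulfatase Galns differed by 0.25 (SE 0.40), and its genotypes overlapped.

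Genes for lipid handling and progranulin were lower in KO for 6 of 6, with a median difference of -0.66. Acid lipase (Lipa), which frees cholesterol and fatty acids from lipoproteins, had levels of -0.06 and -0.74 (WT) against -0.99 and -1.78 (KO). The genotypes did not overlap, and the difference was -0.99 (SE 0.46), or -0.59 without KO replicate 4 and -0.65 without WT replicate 1. Progranulin (Grn), a secreted precursor of lysosomal granulins, was 3.86 and 3.35 (WT) against 3.13 and 2.20 (KO), a difference of -0.94 (SE 0.47), or -0.48 without KO replicate 4. The cholesterol carrier Npc2 was 4.47 and 3.83 (WT) against 3.68 and 2.77 (KO), a difference of -0.93 (SE 0.48), or -0.47 without KO replicate 4 and -0.61 without WT replicate 1.

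Npc1, the membrane protein that takes cholesterol from Npc2, varied less over the arrays than its partner. Its WT levels were -0.94 and -0.84 and its KO levels -1.33 and -1.05, a range of 0.49 where that of Npc2 was 1.70. The genotypes did not overlap for Npc1 or for Npc2. For Npc1, WT replicate 3 was highest and KO replicate 3 lowest, and the difference was -0.30 (SE 0.32). Between the arrays numbered 3 it was -0.49, against -0.15 for Npc2. Prosaposin (Psap), precursor of the sphingolipid activator proteins, was level on 3 arrays at 3.78, 3.78 and 3.75 and lower on KO replicate 4 at 3.40, a difference of -0.20 (SE 0.33). The thioesterase Ppt1 overlapped between genotypes and differed by -0.39 (SE 0.47). None of these genes passed the test (adjusted p = 0.740 to 0.821 in limma).

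The membrane proteins, 5 of 5 lower in KO (4 of 5 with normexp, where Lamp1 changed sign), held a pair that varied and 3 that hardly did. Laptm5, a lysosomal protein of blood cells, had levels of 1.09 and 0.19 (WT) against -0.10 and -1.37 (KO). Its genotypes did not overlap, and the difference was -1.37 (SE 0.61, adjusted p = 0.740 in limma), or -0.73 without KO replicate 4. The tetraspanin Cd63, which also marks exosomes, was 6.09 and 5.23 (WT) against 5.03 and 4.29 (KO), a difference of -0.998 (SE 0.49), or -0.57 without WT replicate 1 and -0.63 without KO replicate 4.

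The most common structural proteins of the membrane were close to constant. Lamp1 had levels of 6.26 and 6.13 (WT) against 6.14 and 6.21 (KO). Its range over all arrays was 0.14, the smallest of the 37 genes, and the difference was -0.02 (SE 0.31, 95% interval -0.85 to 0.80), or -0.20 with quantile normalization or the deposited values. Lamp2, which chaperone-mediated autophagy needs and whose loss causes Danon cardiomyopathy, was 4.01 and 4.07 (WT) against 3.87 and 4.01 (KO), a difference of -0.10 (SE 0.31, 95% interval -0.93 to 0.72). Scarb2, the receptor that brings glucocerebrosidase to lysosomes, had a range of 0.24 and differed by -0.08 (SE 0.31, 95% interval -0.92 to 0.76). The intervals are wide, so changes within their bounds are not excluded with this number of arrays. The bounds are not a limit of detection: S1pr1, with a difference of -3.19, did not pass the test (adjusted p = 0.740 in limma).

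The 3 subunits of the proton pump had differences of unlike size, with intervals that overlapped, and none passed the test. Atp6v0d2, a subunit typical of osteoclasts and macrophages, had levels of -2.14 and -3.18 (WT) against -3.18 and -5.48 (KO). The arrays numbered 3 had the same level to 2 decimals, WT replicate 1 lay above them and KO replicate 4 far below. The difference was -1.67 (SE 0.91), or -0.52 without KO replicate 4, -2.82 without KO replicate 3 and -0.70 with normexp. The lowest level well above background on KO replicate 4 was -6.50. Atp6v1a, the catalytic subunit found in all cells, was 2.84 and 1.99 (WT) against 1.78 and 1.44 (KO), a difference of -0.81 (SE 0.43), or -0.39 without WT replicate 1 and -1.23 without WT replicate 3. Atp6v1b2, the B subunit common to most tissues, differed by -0.01 (SE 0.34), with WT replicate 1 lowest. The calcium channel Mcoln1, through which lysosomal calcium can activate TFEB, had a range of 0.20 and a difference of 0.13 (SE 0.31).

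Tfeb, the transcription factor of lysosome formation, was higher in KO, where most of the other genes were lower. Its level was -3.08 and -0.94 in the WT hearts, and -0.89 and -0.41 in the KO hearts. The genotypes did not overlap, but WT replicate 1 stood far below the other arrays and WT replicate 3 was 0.05 below KO replicate 3. The lowest level well above background on WT replicate 1 was -4.41. The difference was 1.36 (SE 0.80, 95% interval -0.79 to 3.52, adjusted p = 0.740 in limma). Leaving out WT replicate 1 gave 0.29, and leaving out WT replicate 3 gave 2.43.

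**Figure D4:**
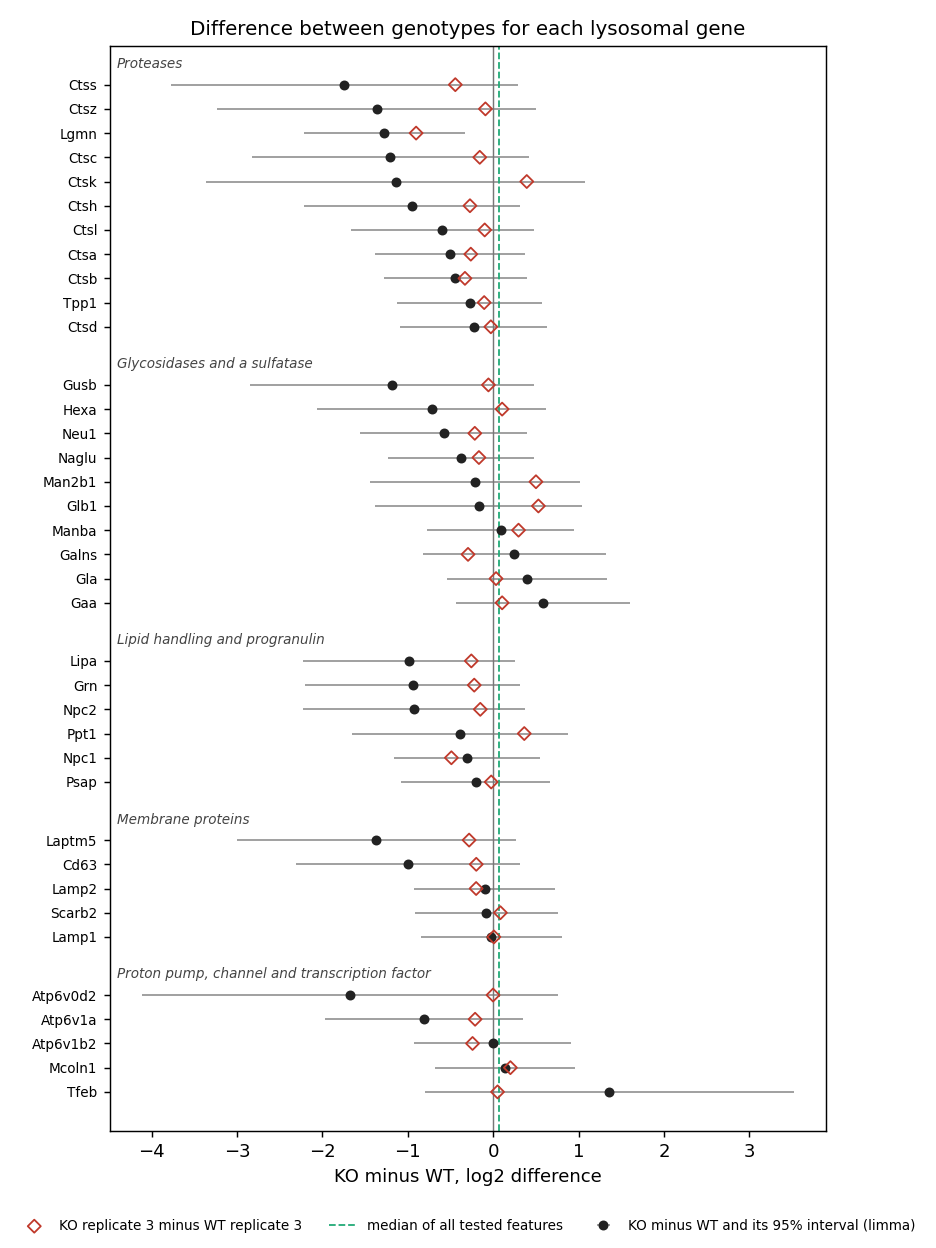
KO minus WT on the log2 scale for each lysosomal gene by role: black points are the fitted differences with 95% intervals from limma, red diamonds the difference between the arrays numbered 3, the dashed line the median of all tested features (0.07). The interval excludes 0 for Lgmn alone, and the red diamonds lie nearer to 0 than the black points for most genes.

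The promoters of these genes were searched for the TFEB recognition element. Windows of 250 bases before to 50 bases after the start, from RefSeq (GRCm38.p6), were at hand for 32 of the 38 genes. The core CACGTG, which reads alike on either strand, was present for 11 of these 32 genes (34.4%), beside 8.09% of all 27025 genes with a window. Of protein-coding genes 8.91% held it, and of 64 other lysosomal genes 14 (21.9%). The longer form TCACGTGA, also its own reverse complement and holding the core, was present for 5 genes (15.6%, against 1.12% of all, 1.41% of protein-coding and 14.1% of other lysosomal genes). GTCACGTG, searched on either strand and overlapping both, was present for 8 genes (25%, against 2.55%, 3.19% and 17.2% in the same order). A match is a run of letters and not a site shown to be bound. Examples are printed to show how the element sits in promoters of genes with large and with small differences. Capitals mark the core and the bases beside it that match GTCACGTG or its reverse complement without a break, 5′ to 3′ on the strand of the gene, and each stretch ends before the start site.
Lgmn, chr12:102439124-102439153, minus strand: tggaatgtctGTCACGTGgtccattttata
Atp6v1a, chr16:44139373-44139402, minus strand: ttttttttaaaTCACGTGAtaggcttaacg
Ctsd, chr7:142387908-142387937, minus strand: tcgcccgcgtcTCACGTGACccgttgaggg
Mcoln1, chr8:3500462-3500491, plus strand: aggcgccccgcTCACGTGACcgcggcgcat
Lamp1, chr8:13159121-13159150, plus strand: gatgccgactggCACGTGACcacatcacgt
Naglu, chr11:101070009-101070038, plus strand: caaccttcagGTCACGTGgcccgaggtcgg
Gaa, chr11:119267811-119267840, plus strand: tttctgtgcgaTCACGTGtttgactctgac
Gla, chrX:134601182-134601211, minus strand: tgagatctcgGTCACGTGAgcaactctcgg

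The core lay 49 bases before the start in Lgmn, 131 in Atp6v1a, 98 in Ctsd and 45 in Mcoln1. Lamp1 had the most copies, 4, of which the 1 printed lies 28 bases before the start. Genes with the core ran from Lgmn (-1.27) and Atp6v1a (-0.81) through Lamp1 (-0.02) and Mcoln1 (0.13) to Gla (0.40) and Gaa (0.58). Their median difference was -0.23 over 11 genes, with 8 lower in KO. The 20 tested genes whose window lacked the core had a median of -0.82, with 18 lower. Of these 18, the largest differences were those of Ctss, Laptm5, Ctsz, Ctsc, Gusb, Ctsk, Cd63, Lipa, Grn and Npc2. Hexa, Neu1, Ppt1, Tpp1, Man2b1, Psap, Lamp2 and Scarb2 (-0.08) were lower by less. Manba (0.09) and Tfeb (1.36) were higher. The difference between these medians was not tested. The macrophage markers, read on the same arrays as both sets, were lower (16 of 16, median -0.69), and their part in either set was not tested.

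A second probe was present for 7 genes, and the sign of the difference was the same for both probes in all 7. The sizes were close for Laptm5 (-1.37 for the probe used and -1.41), Atp6v1a (-0.81 and -0.95) and Atp6v0d2 (-1.67 and -1.40). They were not for Ctsa, where the dimmer probe differed by -0.02 in place of -0.51, for Ctsd (-0.07 in place of -0.23) or for Gaa, whose dimmer probe differed by 1.56 and was not above background on WT replicate 1. The second Lamp2 probe carries another RefSeq transcript and differed by 0.00 to 2 decimals.

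Other lysosomal genes, from lists that hold none of the genes above, were more evenly split. Of 77 tested, 43 were lower and 34 higher in KO with a median difference of -0.09 (-0.20 to -0.07 over other scalings), and none passed the test in limma or had an unadjusted p under 0.05. Among 34 further enzymes and activators, 22 were lower (median -0.31). Acp5, the tartrate-resistant phosphatase of osteoclasts and macrophages, differed by -2.36 (SE 1.05), with 3.80 and 2.01 (WT) against 1.73 and -0.65 (KO). The cathepsin Ctsf differed by 1.70 (SE 0.80). Among 25 further membrane proteins 13 were lower (median -0.03, but 0.01 with normexp), with Litaf at -1.09 (SE 0.43), the channel Mcoln2 at -1.31 (SE 0.61) and Laptm4b at 0.65 (SE 0.31).

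Among 18 further proton pump subunits 8 were lower (median 0.10, but -0.01 with median scaling). Tcirg1, the a3 subunit of osteoclasts and macrophages, differed by -1.70 (SE 0.71), with 1.58 and 0.50 (WT) against 0.11 and -1.45 (KO). WT replicate 1 was highest and KO replicate 4 lowest for Tcirg1, as for 33 of the 77 other lysosomal genes (23.5% of all features). The same held for 27 of the 37 listed genes, Atp6v0d2 among them. Atp6v0e2 and Atp6v1g2 differed by 1.39 (SE 0.71) and 1.04 (SE 0.64). Of 21 genes for sorting to lysosomes 14 were lower (median -0.07), with Lyst at -0.79, Ap1s1 at -0.72 and Bloc1s1 at 0.45. Of 17 relatives of Tfeb and genes of lysosomal nutrient sensing 12 were higher (median 0.10, but 8 of 17 with median scaling, median -0.01), among them the GTPases Rragd (1.33, SE 0.68) and Rragb (0.96, SE 0.45) and the regulator Flcn (0.75, SE 0.43).

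The autophagy list was higher for 13 of 18 genes (11 with median scaling, median 0.22 and 0.11), with the receptor Optn at 1.66 (SE 0.95), Map1lc3b at 0.65 (SE 0.44) and Nbr1 at 0.46 (SE 0.32). Of 6 tested cystatins, inhibitors of cathepsins, 3 were lower. Cstb, a cytosolic inhibitor of cathepsins, differed by -1.45 (SE 0.51, unadjusted p = 0.0413 and adjusted p = 0.740 in limma), with 2.37 and 1.43 (WT) against 0.82 and 0.08 (KO). Its genotypes did not overlap. Cst7 differed by -1.06 and Cst6 by 1.11. No gene of these lists passed the test over all features. Beside them the mean of the cardiomyocyte markers was higher in KO for 14 of 14. Between the arrays numbered 3, those markers were lower in KO for 14 of 14.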

How the data were processed

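Total RNA of 4 heart samples was labelled with Cy3 per the labels' protocols. Scanner intensities are the processed signals of the deposited files, background-subtracted and detrended within each array per the file headers (by Feature Extraction 11.0.1.1, where Agilent Feature Extraction 9.1 stands in the submitters' processing notes). The flags of each spot, of no unit (other), were kept as deposited. A second table that the authors deposited gives log2 values, whose median is 6.11 on every array, and served as an alternative.

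Control and outlier spots were left out, spots of a probe were averaged, and log2 signals were scaled to each array's 75th percentile. Probes were named through RefSeq accessions (27234 of 39429 with a symbol of GRCm38.p6); 15 probes that lacked a value on an array were dropped. Probes well above background on at least 2 arrays were kept, with the brightest probe per gene. The genotypes were compared in limma 3.58.1 (lmFit, eBayes; R 4.3.3) with two-sided p-values adjusted by Benjamini-Hochberg across 22926 features, a script tested on simulated data. Alternatives were other scalings, background correction, filters, probe rules and left-out arrays. The replicate is the number after the genotype in each title. The genes and lists were chosen with earlier results of these data known. All listed genes are reported, and from each further list up to 3 genes of smallest unadjusted p, of which 1 is not reported here. No spot was saturated. Arrays give no interval from counts.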

Additional observations from a re-analysis of the deposited data

How the results depend on the processing

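No paired analysis was run, because the sample titles do not link any WT array to a KO array. The number 3 in both genotypes is not stated to mark a pair. No slide block was run because all arrays carry the same header code, 1. Normexp on mean signals was not run, and median signals, chosen after seeing the data, took its place. Limma called 0 features under every alternative (smallest adjusted p 0.132 to 1.0, the lowest without WT replicate 3, where 4251 had an unadjusted p under 0.05; 633 with all arrays and 167 without KO replicate 4). An arm left with 1 array is assumed to vary like the other genotype. Of 37 genes 27 kept their direction under all 12 alternatives, 23 lower and 4 higher in KO. Some of the 12 could not change it. All 37 genes were above background on all 4 arrays, so other filters left their differences as they were. Averaging probes left the 30 genes with 1 probe unchanged, and quantile and deposited values were nearly the same. Median scaling moved all differences by -0.11. The count lower in KO was 29 to 32 under other scalings, filters and probe rules and 28 to 31 with an array left out. The median difference was -0.59 for quantile and deposited values, -0.11 between the arrays numbered 3, and -0.67 to -0.29 with an array left out.

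Direction changed (the cause was not tested) between the arrays numbered 3 for Ctsk (0.39), Galns (-0.30), Glb1 (0.53), Hexa (0.10), Lamp1 (0.0076), Man2b1 (0.50), Ppt1 (0.36) and Scarb2 (0.084), with normexp for Atp6v1b2 (0.029) and Lamp1 (0.038), and with median scaling for Manba (-0.023). With an array left out, differences ran from -0.25 to 0.23 for Atp6v1b2, -0.042 to 0.54 for Galns, -0.56 to 0.22 for Glb1, -0.089 to 0.047 for Lamp1, -0.58 to 0.15 for Man2b1, -0.052 to 0.23 for Manba, -0.81 to 0.037 for Ppt1 and -0.18 to 0.024 for Scarb2. The sign changed without WT replicate 1 for Galns, Glb1, Lamp1, Man2b1 and Ppt1, without WT replicate 3 for Atp6v1b2 and Manba, without KO replicate 3 for Lamp1, and without KO replicate 4 for Galns, Glb1, Man2b1 and Scarb2.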
